A study of Mus musculus with 6 samples.

Results

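The enzymes that make cholesterol and fatty acids, with the proteins that switch them on, were examined in macrophages of mice on a diet rich in fat. The set holds 36 genes of the 21936 in the deposited tables, chosen by gene symbol: 18 enzymes of cholesterol synthesis, 6 genes of SREBP control and sterol transport, and 12 genes of fatty acid synthesis, desaturation, elongation and acylation. All 36 symbols were found once each. RNA came from sorted macrophages of mice kept for 4 months on a diet rich in fat, in 3 libraries labelled CKO and 3 libraries labelled WT. The genotype labelled CKO is ALKBH5flox/flox, Lyz2-Cre, APOE-/-, and that labelled WT is ALKBH5flox/flox, APOE-/-, so by the labels both groups share floxed Alkbh5 and a knockout of Apoe. Alkbh5 encodes a demethylase of N6-methyladenosine in RNA, and Cre driven from Lyz2 acts in myeloid cells at large, not in macrophages alone. The labels name neither the sorted tissue nor the animals behind each library, so the p-values rest on a spread among libraries that could be technical. Alkbh5 went against its label: its level was 9.15, 8.61 and 8.50 FPKM (reads scaled by gene length and by the library's reads) in the libraries labelled CKO, against 3.77, 3.95 and 3.88 FPKM in those labelled WT. Apoe, looked at after its values were seen, was far from absent and differed between the groups: it had 89.6, 97.3 and 98.1 FPKM in the libraries labelled CKO, against 1665, 1632 and 1607 FPKM in those labelled WT (log2 difference -4.09, SE 0.0355). Reads over a whole gene cannot show whether an exon or an allele was lost, and every direction below therefore refers to the labels and not to a checked genotype.

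Sterol and fatty acid synthesis share acetyl-CoA as their starting material and the SREBP transcription factors as their main switch. SREBPs are made as membrane proteins of the endoplasmic reticulum, where the escort protein SCAP carries them to the Golgi for cleavage when sterols run low, and INSIG proteins hold SCAP back when sterols are plentiful. The released fragment enters the nucleus and acts with partners such as NF-Y, with SREBP2, from Srebf2, tied mainly to sterol genes and SREBP1, from Srebf1, mainly to fatty acid genes. In macrophages the pathway is known to be shut down by cholesterol taken up from lipoproteins and to be altered by inflammatory signals.

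Most of these genes were lower in the libraries labelled CKO. Of the 36 genes, 34 passed the filter of at least 1 FPKM in at least 3 libraries and 28 of them fell, 3 rose and 3 did not pass the test (limma on log2(FPKM + 1), Benjamini-Hochberg adjusted p under 0.05 over 9953 genes). The genes that fell made up 82.4% of those tested, beside 50.5% of all genes tested, and the genes that rose made up 8.82%, beside 30.5%. In either direction 81.1% of all genes tested were called, so a call by itself says little here. The median log2 difference of the 34 genes was -0.71, beside -0.14 for all genes tested. After median-of-ratios scaling, which moved the log2 differences by a median of 0.15, 27 fell (79.4%, beside 39.8% of all genes) and 4 rose (11.8%, beside 39.7%), and the median was -0.57. After quantile normalization 28 fell, beside 43.4% of all genes, and 4 rose, beside 35.9%. Tm7sf2 and Acsl3 passed the filter through the libraries labelled WT alone and could only be found lower, and Fdps and Elovl6 did not pass it.

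**Figure D1:**
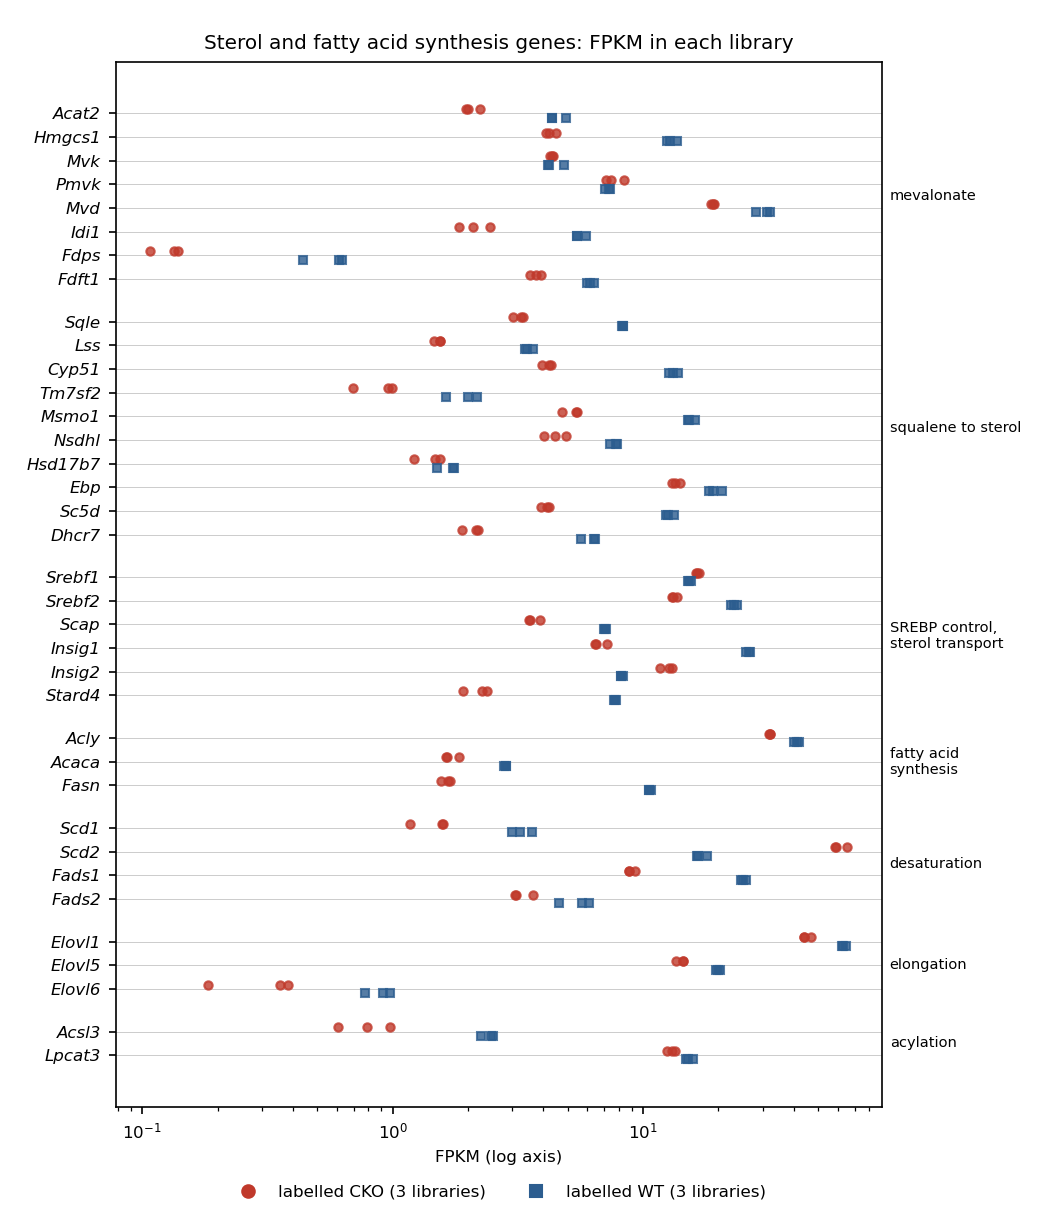
FPKM (log axis) of the 36 genes in each library, grouped by role, with circles for the 3 libraries labelled CKO and squares for the 3 labelled WT. The circles lie left of the squares for most genes and to their right for Scd2, Insig2 and, by a small margin, Srebf1.

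A fall of at least 1 on the log2 scale was seen for 11 of the 34 genes tested, or 32.4%, beside 10% of all genes tested. Scd2 alone among the 34 rose by that much, a size reached upwards by 8.35% of all genes. For 31 of the 34 the ranges of both groups were separate, as they were for 82.5% of all genes tested. Levels ran over a wide range: in the libraries labelled WT the highest mean was that of Elovl1 at 63.4 FPKM and the lowest that of Fdps at 0.558 FPKM. Libraries of a group were close, with coefficients of variation of 0.502% to 9.13% (labelled CKO) and 1.15% to 6.85% (labelled WT) over the 14 genes tested with a mean of at least 5 FPKM in both groups.

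The mevalonate pathway, which builds isoprenoid units from acetyl-CoA and joins them into squalene, holds 8 of the genes. Of 7 tested, 5 fell, 2 did not pass the test and none rose. Hmgcs1, the synthase of HMG-CoA, had 4.10, 4.21 and 4.49 FPKM in the libraries labelled CKO, against 12.9, 12.4 and 13.7 FPKM in those labelled WT. All libraries labelled CKO lay below all those labelled WT, at 32.8% of the mean labelled WT (log2 difference -1.41, SE 0.0522, limma adjusted p = 3.65e-10). Idi1, which isomerises isopentenyl diphosphate, averaged 2.13 ± 0.303 FPKM in the libraries labelled CKO and 5.60 ± 0.255 FPKM in those labelled WT (SD, n = 3 each; log2 difference -1.08). Acat2, the thiolase that starts the pathway, fell by 0.85 on the log2 scale, Mvd, the decarboxylase of the pathway, by 0.66, and Fdft1, which makes squalene, by 0.60.

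The kinases of mevalonate were the genes of the pathway that did not pass the test. Mvk, which adds the first phosphate to mevalonate, had 4.34, 4.27 and 4.39 FPKM in the libraries labelled CKO and 4.18, 4.85 and 4.20 FPKM in those labelled WT. Pmvk, which adds the next, had 7.09, 7.42 and 8.43 FPKM in the libraries labelled CKO and 7.38, 7.32 and 7.08 FPKM in those labelled WT. For both genes the groups overlapped, with log2 differences of -0.02 (SE 0.0601, limma adjusted p = 0.782) and 0.06 (SE 0.0599, adjusted p = 0.349). After median-of-ratios scaling the difference of Pmvk was 0.21 and passed the test (limma adjusted p = 0.00792), as it did after quantile normalization, while that of Mvk was 0.12 and did not (adjusted p = 0.0959).

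Fdps, which makes farnesyl diphosphate, was below the filter. It had 10, 7 and 10 reads in the libraries labelled CKO and 34, 46 and 44 reads in those labelled WT. Without a filter on low values its log2 difference was -0.47 (limma adjusted p = 0.00222). Its counting is uncertain: 26.7% of its exon bases are shared with the gene Gm43738 on the same strand, and 26.2% of its 50-base words occur in transcripts of other genes, 7 of them pseudogenes. Acat2 shares 39.1% of such words with Acat3 and Tcp1, Idi1 25.3% with other genes, 4 of them pseudogenes, and Acaca 30.4% with transcripts of 335 other genes. Fdft1 overlaps Ctsb on the other strand over 18.3% of its exon bases, and Ctsb, a lysosomal protease, stood at 2068 ± 38.5 FPKM in the libraries labelled CKO and 3470 ± 36.2 FPKM in those labelled WT. Part of the exon bases of Scap (13.2%), Hmgcs1 (12.1%), Lpcat3 (10.2%) and Idi1 (9.22%) also lies in a gene on the other strand. Acsl3 shares 5.60% with Utp14b on the same strand, and smaller shares were found for some other genes. The library kit keeps strand, but the strand setting of the counting is not given in the sources used here. Levels of the genes of the set named in this paragraph are therefore uncertain.

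From squalene onward, 9 of 10 enzymes of sterol synthesis fell, 1 did not pass the test and none rose. Cyp51, which removes a methyl group from lanosterol, had 3.94, 4.22 and 4.29 FPKM in the libraries labelled CKO, against 13.2, 13.7 and 12.7 FPKM in those labelled WT (log2 difference -1.46, SE 0.0501, limma adjusted p = 1.81e-10). Sc5d, a sterol desaturase, had 4.14, 3.93 and 4.22 FPKM in the libraries labelled CKO, against 12.6, 13.3 and 12.4 FPKM in those labelled WT (log2 difference -1.43). Msmo1, the methylsterol oxidase, had 4.73, 5.46 and 5.38 FPKM in the libraries labelled CKO, against 15.1, 16.1 and 15.2 FPKM in those labelled WT (log2 difference -1.41). These 3 enzymes stood at 31.4%, 32.1% and 33.5% of their means in the libraries labelled WT, and no library of one group reached the range of the other.

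Dhcr7, the reductase that forms cholesterol from its immediate precursor, had 2.20, 1.89 and 2.16 FPKM in the libraries labelled CKO, against 6.37, 6.42 and 5.66 FPKM in those labelled WT (log2 difference -1.21, SE 0.0647, limma adjusted p = 9.50e-09). Sqle, the epoxidase and a control point of the pathway, averaged 3.20 ± 0.147 FPKM in the libraries labelled CKO and 8.28 ± 0.0357 FPKM in those labelled WT (log2 difference -1.15). Lss, which closes the sterol rings, fell by 0.84 on the log2 scale, the demethylation enzyme Nsdhl by 0.67 and the isomerase Ebp by 0.49. The sterol reductase Tm7sf2 averaged 0.881 ± 0.165 FPKM in the libraries labelled CKO and 1.94 ± 0.278 FPKM in those labelled WT (SD, n = 3 each). Its log2 difference was -0.64, but -1.06 with a pseudocount of 0.1 and -1.13 with limma voom on recovered reads. The level of Tm7sf2 is uncertain too, as 12.1% of its exon bases are shared with Vps51 on the same strand. Vps51 averaged 8.30 ± 0.162 FPKM in the libraries labelled CKO and 10.8 ± 0.840 FPKM in those labelled WT. Hsd17b7, which works beside Msmo1 and Nsdhl, had 1.5, 1.2 and 1.6 FPKM in the libraries labelled CKO and 1.5, 1.7 and 1.8 FPKM in those labelled WT. Its groups overlapped and its log2 difference of -0.14 did not pass the test (SE 0.0731, limma adjusted p = 0.0907).

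**Figure D2:**
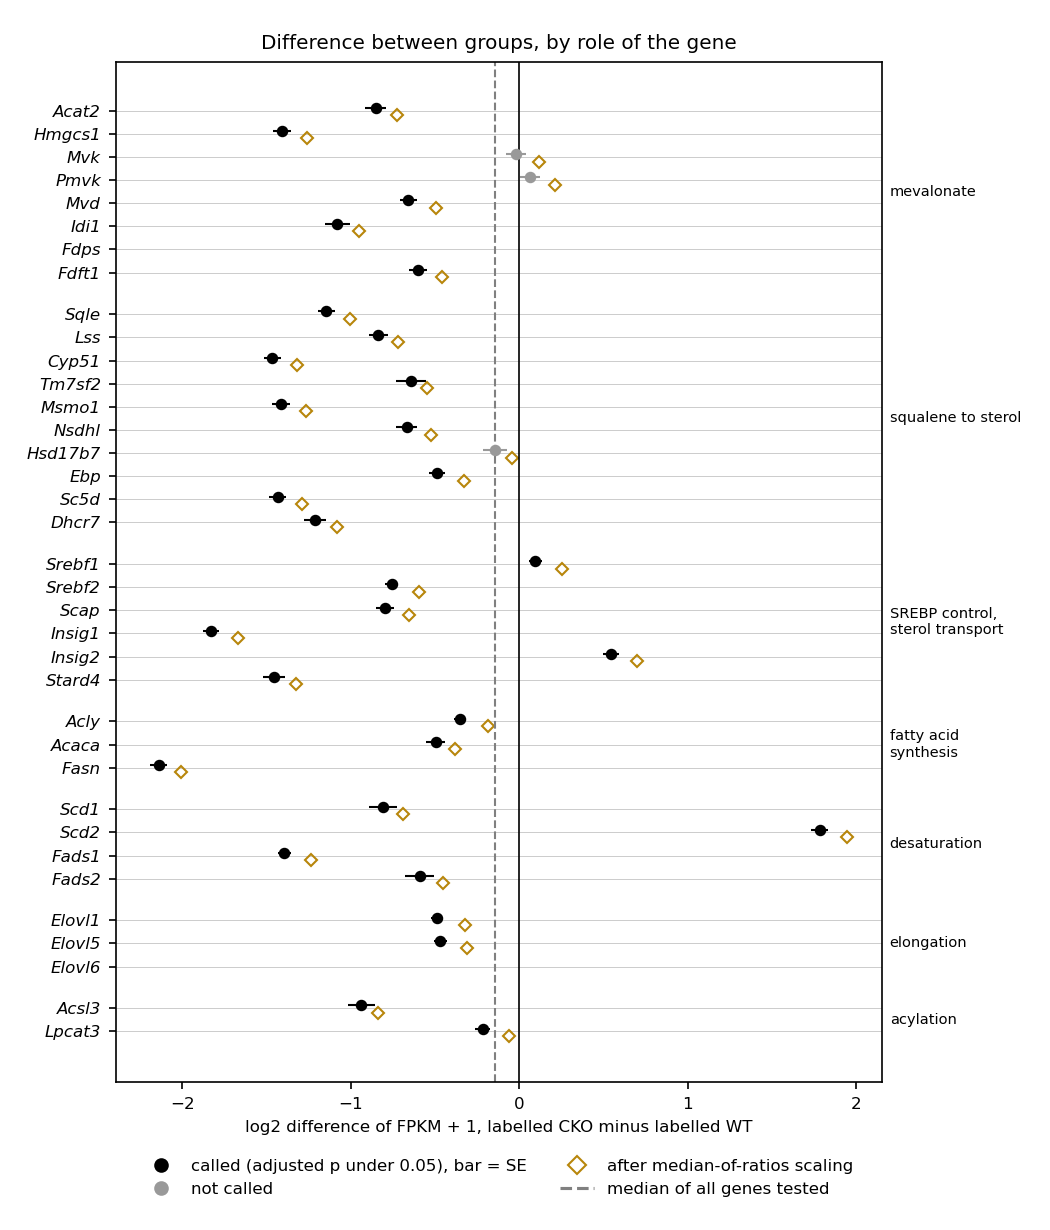
Log2 difference of FPKM + 1, labelled CKO minus labelled WT, for the 34 genes tested, with the SE as bar and gold diamonds for the same difference after median-of-ratios scaling; Fdps and Elovl6 were not tested. Fasn at -2.14 and Scd2 at 1.78 are the extremes, and the dashed line marks the median of all genes at -0.14.

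Control genes of the pathway went in different directions, with 4 of 6 lower and 2 higher. Insig1, which retains SCAP in the endoplasmic reticulum and is itself known as an SREBP target, had 6.43, 6.48 and 7.19 FPKM in the libraries labelled CKO, against 25.8, 26.7 and 26.4 FPKM in those labelled WT (log2 difference -1.83, SE 0.0473, limma adjusted p = 1.68e-11). Insig2, its relative with the same role, had 11.7, 12.7 and 13.0 FPKM in the libraries labelled CKO, against 8.35, 8.17 and 8.16 FPKM in those labelled WT (log2 difference 0.55, SE 0.0477, limma adjusted p = 7.95e-07). Insig1 was thus the lower of the pair in every library labelled CKO and the higher in every library labelled WT. Insig2 made up 65.0 ± 0.957% of the summed FPKM of both genes in the libraries labelled CKO and 23.8 ± 0.562% in those labelled WT (SD, n = 3 each; exact two-sided permutation p = 0.1, the smallest that 3 against 3 libraries allow). That share was chosen after its values were seen. The summed level of both genes was 19.2 ± 1.02 FPKM in the libraries labelled CKO and 34.5 ± 0.386 FPKM in those labelled WT.

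Srebf2, the factor tied to sterol genes, had 13.2, 13.7 and 13.1 FPKM in the libraries labelled CKO, against 23.2, 23.8 and 22.5 FPKM in those labelled WT (log2 difference -0.76, SE 0.0394, limma adjusted p = 7.71e-09). Srebf1 had 16.7, 16.4 and 16.2 FPKM in the libraries labelled CKO, against 15.3, 15.2 and 15.5 FPKM in those labelled WT. Its groups did not overlap, but the log2 difference was only 0.10 (SE 0.0371, limma adjusted p = 0.0327). That call was lost with the replicate number as a block (adjusted p = 0.0598) and without any 1 library except the third labelled CKO (adjusted p up to 0.0860), and after median-of-ratios scaling the difference was 0.26 (limma adjusted p = 6.01e-05). Srebf1 lies 313.8 kb from Alkbh5 on chromosome 11, and gene-level FPKM does not separate its isoforms.

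Srebf1 made up 55.2 ± 0.738% of the summed FPKM of both factors in the libraries labelled CKO and 39.8 ± 0.947% in those labelled WT (SD, n = 3 each; exact two-sided permutation p = 0.1, the smallest possible here). Scap, the escort, had 3.51, 3.54 and 3.89 FPKM in the libraries labelled CKO, against 7.06, 7.09 and 7.0 FPKM in those labelled WT (log2 difference -0.80, SE 0.0520, limma adjusted p = 5.96e-08). Stard4, a carrier of cholesterol between membranes, had 1.91, 2.38 and 2.27 FPKM in the libraries labelled CKO, against 7.67, 7.74 and 7.77 FPKM in those labelled WT (log2 difference -1.46, SE 0.0628, limma adjusted p = 1.43e-09). Both genes were lower in each library labelled CKO than in any labelled WT.

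Promoters were compared because genes of this set are known as SREBP targets. A high share of a motif thus describes the choice of genes and not their differences between groups. RefSeq promoters (GRCm38.p6, 250 bases before to 50 after the transcript start) matched 29 of the 36 genes by symbol, with 38 promoters in all. The NF-Y box CCAAT, searched on both strands, was in at least 1 promoter of 24 of the 29 genes, or 82.8%, beside 42.6% of the 8070 genes tested that have a promoter in the table. Among the 15 sterol enzymes matched it was in 14, and among the 9 fatty acid genes in 6. The E-box, spelled CACGTG, was in 6 of the 29 genes, or 20.7%, beside 12.4% of the genes tested. A sterol response element of the form TCACNCCAC was found for Hmgcs1 alone, beside 1.35% of the genes tested, and for none of the other 28 genes in these windows. Of the genes tested not all have the same number of promoters, and these matches describe letters, not sites in use.

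Stretches that hold the matches and no annotated exon are shown for the genes matched that fell most in the mevalonate pathway, in SREBP control and in fatty acid synthesis, for Sc5d, and, for contrast, for Mvk, which did not pass the test, and Insig2, which rose. Each is written 5′ to 3′ on the strand of the gene, with capitals for the NF-Y box or its complement, the E-box and, in Hmgcs1, the sterol response element.
Hmgcs1, mm10 chr13:119690131-119690330, plus strand: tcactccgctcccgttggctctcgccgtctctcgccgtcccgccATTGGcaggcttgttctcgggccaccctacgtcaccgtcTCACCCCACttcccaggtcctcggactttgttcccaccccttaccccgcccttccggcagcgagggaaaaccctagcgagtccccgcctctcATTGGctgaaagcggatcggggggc
Sc5d, mm10 chr9:42264301-42264418, minus strand: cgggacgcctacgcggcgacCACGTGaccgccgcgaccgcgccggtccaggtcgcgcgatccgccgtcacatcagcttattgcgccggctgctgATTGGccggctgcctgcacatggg
Insig1, mm10 chr5:28071176-28071336, plus strand: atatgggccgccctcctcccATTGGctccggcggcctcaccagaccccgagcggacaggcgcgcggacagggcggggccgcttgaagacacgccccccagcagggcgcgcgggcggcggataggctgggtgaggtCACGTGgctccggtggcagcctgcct
Fasn, mm10 chr11:120824582-120824657, minus strand: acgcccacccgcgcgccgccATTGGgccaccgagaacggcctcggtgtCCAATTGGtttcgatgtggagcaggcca
Mvk, mm10 chr5:114444076-114444268, plus strand: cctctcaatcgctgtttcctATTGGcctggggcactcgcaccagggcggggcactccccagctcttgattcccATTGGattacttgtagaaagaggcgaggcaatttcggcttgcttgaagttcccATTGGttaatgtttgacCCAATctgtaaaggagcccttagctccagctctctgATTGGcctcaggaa
Insig2, mm10 chr1:121332594-121332745, minus strand: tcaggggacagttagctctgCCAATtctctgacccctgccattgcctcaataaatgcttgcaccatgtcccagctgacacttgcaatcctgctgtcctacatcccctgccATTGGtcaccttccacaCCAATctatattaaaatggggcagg

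Stretches were shown only where a match was found, so boxes in them do not contrast genes that fell with genes that did not. Hmgcs1 held its sterol response element at position -137 relative to the start, between boxes at -176 and -45. Insig1 and Sc5d each had 1 E-box and 1 NF-Y box, and Fasn had 3 NF-Y boxes at -90, -62 and -59, the last pair overlapping. Mvk had 5 boxes, the most among these genes, and Insig2 had 3 in the promoter shown.

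Fatty acid genes were lower with 1 exception: of 11 tested, 10 fell and Scd2 rose. Fasn, the synthase that makes palmitate, had 1.70, 1.66 and 1.57 FPKM in the libraries labelled CKO, against 10.6, 10.6 and 10.8 FPKM in those labelled WT. The libraries labelled CKO stood at 15.4% of the mean labelled WT, the lowest percentage among the 36 genes (log2 difference -2.14, SE 0.0498, limma adjusted p = 6.77e-12). The enzymes that supply it differed less: Acly, which makes acetyl-CoA from citrate, fell by 0.35 on the log2 scale and Acaca, which makes malonyl-CoA, by 0.50. After median-of-ratios scaling the difference of Acly was -0.19. In FPKM, Acly averaged 32.0 ± 0.161 in the libraries labelled CKO and 41.2 ± 0.954 in those labelled WT (SD, n = 3 each).

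Scd1 and Scd2, neighbours 87.6 kb apart on chromosome 19, both encode stearoyl-CoA desaturases, which make monounsaturated fatty acids. Scd2 had 59.0, 65.3 and 58.6 FPKM in the libraries labelled CKO, against 17.96, 16.53 and 16.46 FPKM in those labelled WT, a rise of 3.59-fold in the mean (log2 difference 1.78, SE 0.0497, limma adjusted p = 3.11e-11). Scd1 had 1.17, 1.59 and 1.57 FPKM in the libraries labelled CKO, against 3.22, 3.59 and 2.99 FPKM in those labelled WT (log2 difference -0.81, SE 0.0824, limma adjusted p = 3.17e-06). The neighbours thus moved in opposite directions, with no overlap between groups for either gene, and Scd2 was the more abundant in all 6 libraries. Of their 50-base words 4.56% (Scd1) and 3.97% (Scd2) occur in other genes, in each other, Scd3 and Scd4 among them. Scd2 made up 97.7 ± 0.342% of the summed FPKM of both in the libraries labelled CKO and 83.9 ± 1.47% in those labelled WT (SD, n = 3 each; exact two-sided permutation p = 0.1, the smallest possible here).

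**Figure D3:**
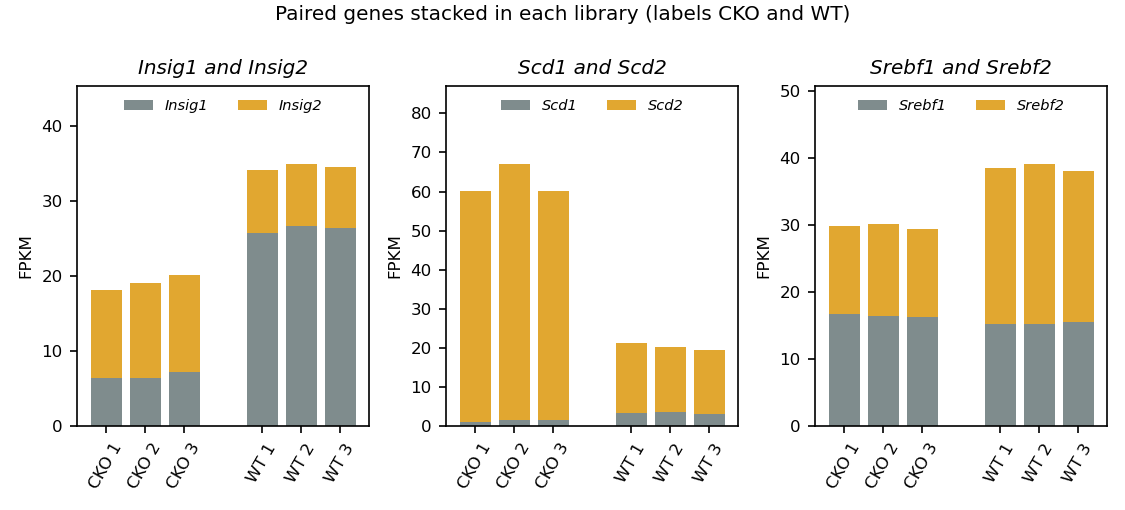
Stacked FPKM of Insig1 with Insig2, Scd1 with Scd2 and Srebf1 with Srebf2 in each library (bars: 1 library each, labelled CKO at the left of each panel). Insig2 forms 65.0% of its pair in the libraries labelled CKO and 23.8% in those labelled WT, and the Scd total of 62.4 FPKM against 20.3 FPKM is nearly all Scd2.

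Fads1 and Fads2, the desaturases of polyunsaturated fatty acids, both fell. Fads1 had 8.77, 8.80 and 9.32 FPKM in the libraries labelled CKO, against 25.8, 24.7 and 25.0 FPKM in those labelled WT (log2 difference -1.39, SE 0.0410, limma adjusted p = 4.90e-11). Fads2, 81.1 kb away, fell by 0.59, averaging 3.28 ± 0.312 FPKM in the libraries labelled CKO and 5.47 ± 0.758 FPKM in those labelled WT (SD, n = 3 each). Among the elongases, Elovl1, which extends very long chains, fell by 0.49 and Elovl5, which extends polyunsaturated chains, by 0.47. After median-of-ratios scaling these differences were -0.32 for Elovl1 and -0.31 for Elovl5. Elovl6, which extends palmitate, was below the filter at 39, 38 and 21 reads in the libraries labelled CKO and 92, 113 and 98 reads in those labelled WT. Without a filter its log2 difference was -0.53 (limma adjusted p = 0.00518).

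Acsl3, which couples fatty acids to CoA, had 0.790 ± 0.189 FPKM in the libraries labelled CKO and 2.41 ± 0.148 FPKM in those labelled WT (log2 difference -0.94, but -1.52 with a pseudocount of 0.1 and -1.63 with limma voom on recovered reads). Lpcat3, which places polyunsaturated chains in phospholipids, fell by 0.22 (limma adjusted p = 7.00e-04), but median-of-ratios scaling ended that call, with a difference of -0.06 (adjusted p = 0.245).

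Summed over a library, the 18 sterol enzymes gave 82.0, 83.0 and 86.4 FPKM in the libraries labelled CKO, against 163, 166 and 157 FPKM in those labelled WT. The 10 enzymes of fatty acid synthesis, desaturation and elongation gave 166, 173 and 169 FPKM in the libraries labelled CKO, against 189.3, 189.5 and 190.1 FPKM in those labelled WT. Without Scd2 the second sum was 108 ± 1.78 FPKM in the libraries labelled CKO and 173 ± 1.16 FPKM in those labelled WT (SD, n = 3 each). The ratio of sterol to fatty acid enzymes was 0.495 ± 0.0153 in the libraries labelled CKO and 0.855 ± 0.0267 in those labelled WT. Sums in FPKM weigh abundant genes most, and Elovl1, Acly and Scd2 carry most of the second sum. The sums given here were not rescaled. Median-of-ratios scaling divides by 0.945, 0.945 and 0.939 in the libraries labelled CKO and by 1.07, 1.05 and 1.06 in those labelled WT. Divided by these factors, the fatty acid sums of both groups overlap, so their gap depends on the scaling.

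**Figure D4:**
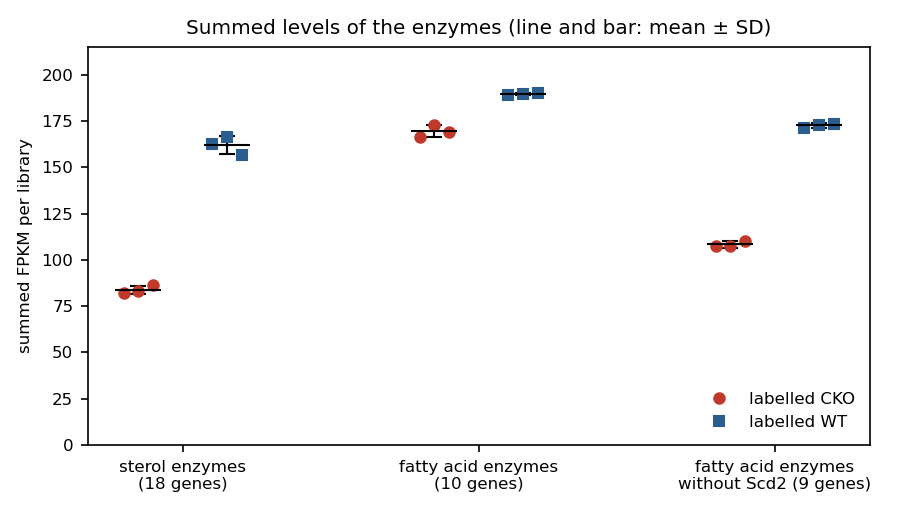
Summed FPKM per library of the 18 sterol enzymes, the 10 fatty acid enzymes, and the fatty acid enzymes without Scd2 (points: libraries; line and bar: mean ± SD, n = 3). The libraries labelled CKO lie below those labelled WT in each sum, with 83.8 against 162 FPKM for sterol enzymes and 169 against 190 FPKM for fatty acid enzymes. The sums are not rescaled, and the gap between groups for the 10 fatty acid enzymes depends on the scaling.

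Other genes of these pathways did not share one direction. Of 76 further genes in 5 lists 61 were tested, 26 fell, 25 rose and 10 did not pass the test, with a median log2 difference of -0.03. Of all genes tested 50.5% fell and 30.5% rose, with a median of -0.14. These shares also stand beside the counts of each single list here and in the next paragraph. Whether any list departs from them was not tested. Partners and branches of sterol synthesis gave 10 lower and 5 higher of 18: Cyb5a, the electron carrier cytochrome b5, rose by 1.03. In the list of SREBP processing and degradation 5 of 11 fell and 3 rose, with Fbxw7, which marks nuclear SREBPs for destruction, at -0.89 and Sec24d, a coat protein of vesicles that leave the endoplasmic reticulum, at 0.80. Lipogenic enzymes and regulators gave 4 lower and 5 higher of 9. Mid1ip1, an activator of acetyl-CoA carboxylase, averaged 5.74 ± 0.285 FPKM in the libraries labelled CKO and 29.5 ± 2.27 FPKM in those labelled WT, whereas the malic enzyme Me1, a source of NADPH, averaged 11.1 ± 0.405 FPKM in the libraries labelled CKO and 1.96 ± 0.426 FPKM in those labelled WT (SD, n = 3 each).

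Among partners of elongation and desaturation 4 of 6 fell and 2 rose, with the dehydratases Hacd4 and Hacd1 at -1.81 and -0.95. In the list of acyl-CoA synthetases and acyltransferases 10 of 17 rose and 3 fell. Acsl1, a synthetase of the same family as Acsl3, averaged 139 ± 1.02 FPKM in the libraries labelled CKO and 5.53 ± 0.183 FPKM in those labelled WT, a log2 difference of 4.43 (SE 0.0349, limma adjusted p = 2.04e-15). Lpin1, a phosphatidate phosphatase, averaged 0.345 ± 0.0221 FPKM in the libraries labelled CKO and 5.41 ± 0.152 FPKM in those labelled WT (log2 difference -2.25). Lpin1 too passed the filter through the libraries labelled WT alone and could only be found lower. Acsl1 thus rose while Acsl3 fell, but Acsl3 passed the filter through the libraries labelled WT alone and could only be found lower. Scd1 and Scd2, by contrast, reached 1 FPKM in every library.

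Lists of neighbouring lipid functions were also mostly lower, where 50.5% of all genes tested fell and 30.5% rose, with a median log2 difference of -0.14. Of 17 genes of LXR control, cholesterol efflux and lysosomal release, 12 fell and 4 rose, with a median log2 difference of -0.95. Apoe, by the labels a knockout in both groups, is 1 of these 17. Of 20 genes of fatty acid beta-oxidation 18 were tested, 13 fell and 2 rose, with a median of -0.49. The median of the synthesis genes, -0.71, lay between the medians of those lists, and differences between lists were not tested.

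Markers of other cells differed between the groups beside these genes. The summed FPKM of 10 neutrophil markers was 68.2 to 83.6 in the libraries labelled CKO and 614 to 900.4 in those labelled WT. All 7 markers tested fell, beside 50.5% of all genes tested, and Retnlg was at 0 in all 3 libraries labelled CKO. A marker that low in every library labelled CKO can pass the filter only through those labelled WT. It can then only be found lower. Erythroid and platelet markers summed to 115 to 128 FPKM in the libraries labelled CKO and 173 to 189 FPKM in those labelled WT (8 markers, 3 of them with a mean of at least 1 FPKM in either group). Lymphocyte markers summed to 2.18 to 2.73 FPKM in the libraries labelled CKO and 7.18 to 8.76 FPKM in those labelled WT (12 markers). For endothelium, fibroblasts and smooth muscle, 12 markers summed to 11.3 to 12.7 FPKM in the libraries labelled CKO and 27.8 to 28.8 FPKM in those labelled WT. The part of any of these cells in the differences above was not tested, and fewer cells of a type cannot be told apart from less RNA per cell. Of 8 adipocyte markers, 4 were at 0 in all 6 libraries (Plin1, Lep, Cidec and Cfd). The same held for 4 of 8 hepatocyte markers (Alb, Ttr, Serpina1a and Fgb). The part of these cells in the differences above was not tested either. The adipocyte list summed to 2.59 to 2.67 FPKM in the libraries labelled CKO and 2.41 to 2.66 FPKM in those labelled WT, nearly all from Lipe, and the hepatocyte list to 3.41 to 3.59 FPKM in the libraries labelled CKO and 32.1 to 32.4 FPKM in those labelled WT, nearly all from Trf. All 10 macrophage markers were tested and had a mean of at least 1 FPKM in at least 1 group. They summed to 11958 to 12306 FPKM in the libraries labelled CKO and 20419 to 22357 FPKM in those labelled WT. Of these 10, 5 rose and 4 fell. A call with a log2 difference of at least 1 in either direction was made for 6 of them, beside 1829 of the 9953 genes tested. Reads assigned to genes numbered 15422154 to 18418903 per library, and the genes tested here had 45 to 5698 reads in a library.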

How the data were processed

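Libraries were grouped and numbered by their titles. Per the file headers, the authors deposited FPKM for each gene. The submitters' processing notes name these tools without saying what each did: HISAT2 2.1.0, fastp 0.19.3, featureCounts 1.6.2, StringTie 1.3.4d, Cufflinks, GATK 4.0.11.0 and DESeq2 1.22.1; the build is mm10. All values (100%) became whole reads, within 0.01, once multiplied by gene length and divided by the worth of 1 read. These recovered reads gave the depth and 1 alternative test. A gene of 1 kb with 3 reads has 0.163 to 0.195 FPKM here, counting error only.

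The test was limma 3.58.1 in R 4.3.3 (lmFit, then eBayes with trend) on log2(FPKM + 1), comparing the groups with no covariate, over the 9953 genes that reached 1 FPKM in 3 or more libraries, with Benjamini-Hochberg adjustment. Differences are labelled CKO minus labelled WT, and the added 1 makes those of low genes too small. Other computing used Python 3.11.15 with scipy 1.17.1, pandas 2.3.3 and numpy 2.4.6. The limma step was tested on simulated data, with 50 genes changed by each of 1.25, 1.5, 2 and 4-fold among 9773 tested. There 16 of 211 calls were false. The spread between simulated libraries was set in advance and not taken from the real ones. The rate of false calls therefore does not carry over to the real libraries. Far fewer genes changed than were called in the real libraries, so the simulation does not test the scaling between groups.

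The genes, lists and tests were chosen with earlier results of these data known. Values of every library are given for the 10 called genes with the largest log2 differences, the regulators, the Scd genes, and genes not called or going against their group; each further list is represented by up to 2 called genes with the largest difference, of which 1 is not reported here. Same-numbered libraries did not deviate together (correlations of -0.039 to 0.019 over genes), so the numbers were not taken as pairs. Promoter sequences are from RefSeq, and overlaps and shared words from GENCODE M21. Alternatives were a replicate block, leaving out each library, other pseudocounts (0.1, 0.5), a stricter filter (mean FPKM of 5) or none, median-of-ratios or quantile scaling, no trend, limma voom on recovered reads, and stricter thresholds (adjusted p of 0.01, log2 difference of 0.5).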

Additional observations from a re-analysis of the deposited data

How the results depend on the processing

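Counts of calls over the sterol and fatty acid genes stayed within 1.5 times under every alternative but 1: with a mean FPKM of at least 5 required, 21 of the genes were left and 20 were called, 17 of them lower, because fewer genes were tested; over all genes 3185 were then called lower. Requiring a log2 difference of at least 0.5 left 4122 calls over all genes, 1542 higher and 2580 lower. With the replicate number as a block, 30 of the 34 genes were called, 2 higher and 28 lower, Srebf1 being the call lost. Leaving out 1 library gave 30 to 31 calls, 2 or 3 of them higher and 28 or 29 lower. The median log2 difference of -0.71 became -0.57 after median-of-ratios scaling, -0.66 after quantile normalization, -0.86 and -0.80 with pseudocounts of 0.1 and 0.5, and -0.88 with limma voom on recovered reads. Of the 34 genes 29 kept direction and call in each of the 15 refits that tested them (21 genes in all 15; the other 13 were left out by the filter on a mean FPKM of 5). Requiring a log2 difference of at least 0.5 left 24 of the 34 called, 2 higher and 22 lower, without Acly, Acaca, Ebp, Elovl1, Elovl5, Lpcat3 and Srebf1. Mvk changed sign after median-of-ratios scaling (0.12), quantile normalization (0.11) and without WT replicate 2 (0.0394; -0.0487 to 0.0394 when 1 library was left out), Pmvk without CKO replicate 3 (-0.00146), and Hsd17b7 after quantile normalization (0.0185); none of these 5 values passed the test, and the cause was not tested. Hsd17b7 passed the test without WT replicate 1 (-0.19, limma adjusted p = 0.0489). The shares of Scd2, Srebf1 and Insig2 and the ratio of sterol to fatty acid enzymes moved by less than the spread between libraries when 1 was left out or recovered reads replaced FPKM. Depth limits Fdps, Elovl6, Acsl3 and Tm7sf2, which had under 1 FPKM in every library labelled CKO.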
